A study of Mus musculus with 18 samples.

Results

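A set of 10 signalling proteins that injured sensory neurons are known or thought to send to the cells around them was followed here through the day after an axon cut. The genes are Csf1 and Il34, the chemokines Ccl2, Cx3cl1, Cxcl12 and Cxcl10, the gp130 cytokines Il6, Lif and Clcf1, and Mif, and they were chosen by name, 10 of the 47643 genes counted. The libraries came from spot cultures of dorsal root ganglia (DRG) of CD-1 mouse embryos at e13.5, in which the ganglion cells are plated as a dense drop and axons grow outwards. All cultures received the mitotic inhibitor 5-fluorodeoxyuridine, which removes dividing non-neuronal cells. Control cultures were left uncut and collected at day 7 in vitro. Injured cultures had their axons cut with a blade at day 7, as the paper states. They were harvested at 5 times, 1, 3, 8, 16 and 24 HPI (hours post injury). No uncut culture was matched to the later hours, so hours after injury and hours in culture cannot be told apart. Each of the 6 groups held 3 libraries, numbered replicates 1 to 3, and all 5 injured groups shared the same 3 control libraries.

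Cytokines and chemokines are small secreted or membrane-bound proteins that act through receptors on other cells. In an injured ganglion, Csf1 and Il34 act on the macrophage and microglial receptor Csf1r, the chemokines draw in monocytes and T cells, and Il6, Lif and Clcf1 act through receptors that share the subunit gp130, encoded by Il6st, and activate Stat3. Several of these genes carry NF-kB or AP-1 sites in their promoters, the binding sites of factors that respond to stress, and Mif differs from the others in being made and stored by most cells without any stimulus.

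The promoters of 3 genes are printed because they belong to the gene that rose after injury (Csf1), the most abundant gene of the set (Mif) and a gene that was almost unread although its promoter holds letters of both stress motifs (Il6). Each is the 250 bases before the RefSeq start site on GRCm38.p6, written 5′ to 3′ on the gene's own strand. Capitals mark matches, on either strand, to 4 motifs: AP-1 (TGANTCA), the cyclic AMP response element (TGACGTCA), NF-kB (GGG, any 2 letters, then TTTCC) and the TATA box (TATAAA).
Csf1, chr3:107760470-107760719, minus strand: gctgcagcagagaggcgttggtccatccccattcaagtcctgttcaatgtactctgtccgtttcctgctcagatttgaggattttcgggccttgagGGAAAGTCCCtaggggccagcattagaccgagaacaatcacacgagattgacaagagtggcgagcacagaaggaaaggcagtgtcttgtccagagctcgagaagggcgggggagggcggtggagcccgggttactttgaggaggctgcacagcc
Mif, chr10:75860278-75860527, minus strand: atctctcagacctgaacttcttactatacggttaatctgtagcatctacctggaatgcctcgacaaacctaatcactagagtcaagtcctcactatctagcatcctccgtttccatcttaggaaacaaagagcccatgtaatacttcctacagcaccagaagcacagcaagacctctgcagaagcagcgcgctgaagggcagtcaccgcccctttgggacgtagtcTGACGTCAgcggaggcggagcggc
Il6, chr5:30012864-30013113, plus strand: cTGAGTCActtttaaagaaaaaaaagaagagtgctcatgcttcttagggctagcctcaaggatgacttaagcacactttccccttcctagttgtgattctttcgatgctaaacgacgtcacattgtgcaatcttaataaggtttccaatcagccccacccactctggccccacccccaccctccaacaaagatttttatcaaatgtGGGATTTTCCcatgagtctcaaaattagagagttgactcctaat
The Csf1 window held 1 NF-kB match, GGAAAGTCCC on the opposite strand, 154 bases before the start, and 2 GC boxes (GGGCGG, not capitalised), 51 and 41 bases before it. The Mif window held a cyclic AMP response element 24 bases before the start and a GC box at 45 bases. The Il6 window held an AP-1 match 249 bases and an NF-kB match 44 bases before the start. Over all 32851 mouse promoter windows of this length, 1.41% held the NF-kB letters, 1.55% the cyclic AMP response element, 6.75% AP-1, 12.4% the TATA letters and 32.7% a GC box. Windows were found for 7 of the 10 genes, and 2 others, Lif and Cxcl10, each held 1 AP-1 match, 228 and 74 bases before the start. The Cx3cl1 window held a TATA box 6 bases and a GC box 27 bases before the start, and the Cxcl12 window held 5 GC boxes. These matches describe letters and not occupied sites.

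The libraries held 9478891 to 23082327 counts on genes, and levels are given as counts per 1000000 (CPM) after scaling by TMM factors. A gene was tested if 3 or more libraries had it over 1 CPM. This left 13771 genes, and 5 of the 10 were among them: Csf1, Il34, Cx3cl1, Clcf1 and Mif. The summed level of 8 sensory neuron markers ranged from 7989 to 9677 CPM. Of the other cells that could make or answer these cytokines, the 5 endothelial markers summed to at most 2.01 CPM, the 9 myeloid markers to between 4.57 and 8.76 CPM and the 6 fibroblast markers to between 1.22 and 19.6 CPM. The 10 glial markers summed to between 98.7 and 131.1 CPM, most of it from Mbp. Ribosomal RNA and mitochondrial genes took 15.0% to 26.1% of the counts, with the highest share in replicate 1 at 16 HPI. Since the libraries are bulk, fewer cells of a type and less RNA per cell cannot be told apart.

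Per kilobase of exon, the 10 genes covered a very wide range in the uncut culture. Mif stood at 353 ± 6.42 RPKM (SD, n = 3), more than any of the receptors examined. Il34 at 1.30 ± 0.456 RPKM and Csf1 at 1.25 ± 0.318 RPKM came next and their libraries overlapped, followed by Clcf1 at 0.611 ± 0.371 RPKM. Cx3cl1 at 0.239 ± 0.107 RPKM and Ccl2 at 0.187 ± 0.0949 RPKM also overlapped. Lif, Il6 and Cxcl10 lay between 0.0256 and 0.0339 RPKM, and Cxcl12 had no count in any control library. The plot of ligand and receptor levels in the uncut culture shows the same order beside the receptors.

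**Figure D1:**
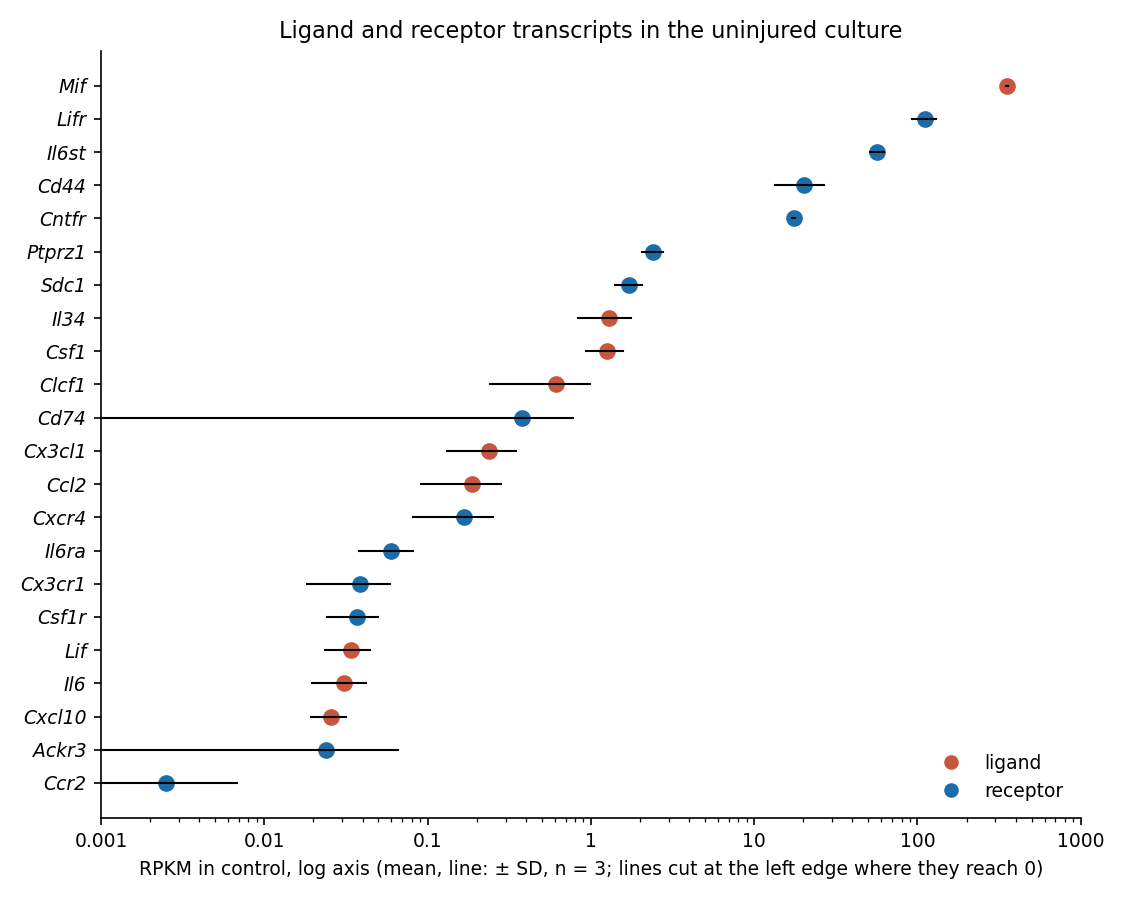
Mean RPKM over the 3 control libraries (log axis, lines show ± SD) of the cytokine and chemokine genes in red and of their receptors in blue. Mif, Lifr and Il6st lead, Csf1 and Il34 sit near 1 RPKM, and Csf1r sits at 0.0370 RPKM. Cxcl12, Cxcr2 and Cxcr3 had no count in control and are not drawn.

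Among the ligands of Csf1r, Csf1 rose at 16 HPI and returned by 24 HPI. Csf1 is the macrophage growth factor that injured sensory neurons are known to release towards spinal microglia. Its control libraries stood at 8.44, 5.16 and 6.16 CPM (166, 70 and 128 counts, replicates 1 to 3), and its 16 HPI libraries at 14.6, 9.0 and 10.2 CPM (206, 159 and 188 counts). Every 16 HPI library was above every control library, as it was for 10.9% of all tested genes. The groups in between were close to control, at 6.67, 5.78 and 6.94 CPM at 1 HPI, at 6.63, 5.54 and 7.62 CPM at 3 HPI and at 7.92, 5.62 and 7.88 CPM at 8 HPI. By 24 HPI the libraries stood at 7.59, 5.23 and 7.31 CPM, inside the control range.

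In the quasi-likelihood test of edgeR, with p-values adjusted by Benjamini-Hochberg and the replicate number as a block, Csf1 was 1.69-fold higher at 16 HPI than in control (log2 fold change 0.76, SE 0.12, 95% interval 0.50 to 1.02, adjusted p = 0.0001319). It was the 1 call among the 5 tested genes, where 22.2% of all tested genes were called in this comparison and 10.7% were called higher. By fold it ranked 279 among the 1477 genes called higher, and it was not among the 1.49% called with a change over 2-fold. Within each replicate number the ratio was 1.74, 1.74 and 1.65. Csf1 was also higher at 16 HPI than at 8 HPI (log2 0.63, SE 0.13, adjusted p = 0.001713) and lower at 24 HPI than at 16 HPI (log2 -0.73, SE 0.12, adjusted p = 0.0005146), where 9.82% of all tested genes were called and 6.22% were called lower. At 24 HPI it differed from control by 0.03 on the log2 scale (95% interval -0.24 to 0.30).

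The calls on Csf1 rested on comparing libraries of the same replicate number. Without the replicate block the log2 fold change at 16 HPI was again 0.76, with an SE of 0.22 and an adjusted p of 0.05571 by the same test, and the changes from 8 to 16 HPI and from 16 to 24 HPI had adjusted p of 0.1785 and 0.1534. Replicate 2 was lowest in Csf1 in every group. Leaving out the highest library, replicate 1 at 16 HPI, left a log2 fold change of 0.63 (adjusted p = 0.002614 in edgeR's test with the block), and leaving out the ribosomal and mitochondrial genes left 0.76.

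**Figure D2:**
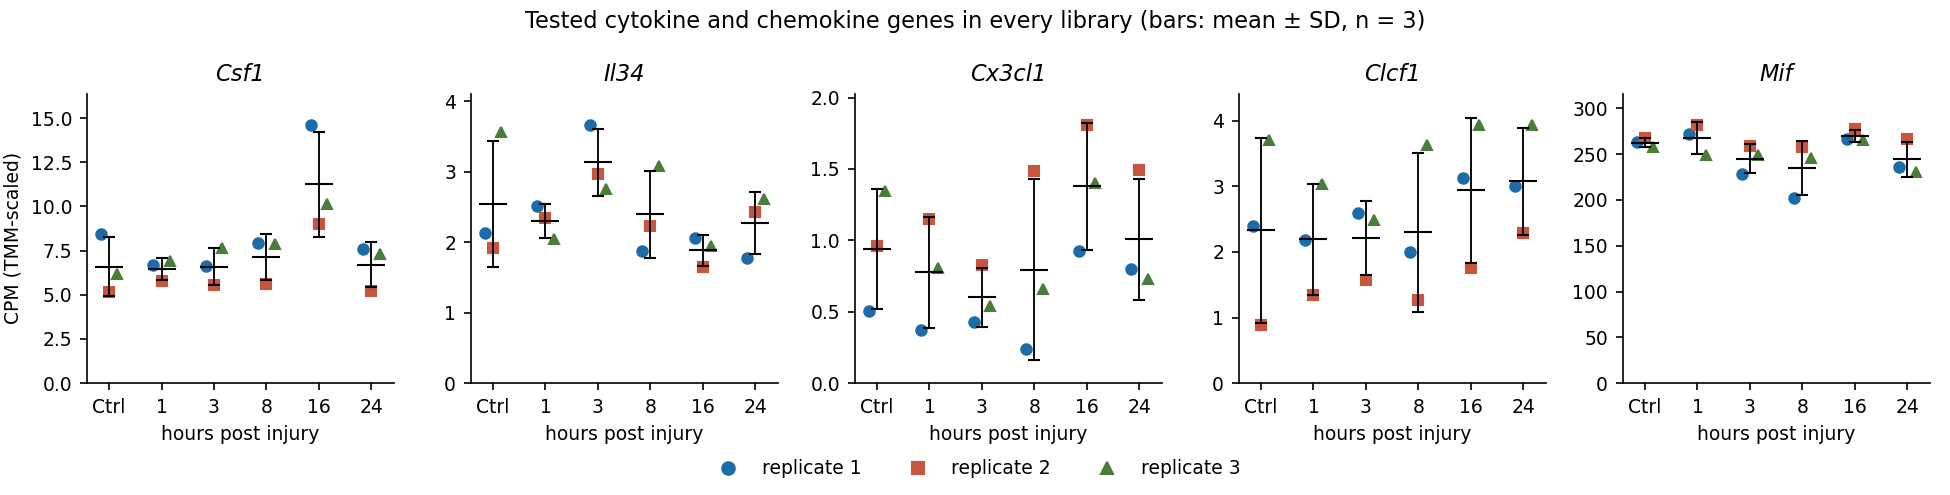
CPM (vertical axis, TMM-scaled, starting at 0) of the 5 tested genes in every library over time after injury, with symbols for the replicate number and bars for mean ± SD of 3 libraries. The 3 Csf1 libraries at 16 HPI, 9.0 to 14.6 CPM, lie above all other Csf1 libraries, and Mif stays between 202 and 282 CPM.

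A fibroblast marker and a myeloid marker were also called higher at 16 HPI. Dcn, a collagen-binding proteoglycan of fibroblasts, rose from 0.570 to 2.46 CPM (log2 2.07, SE 0.28, edgeR adjusted p = 1.769e-05; without the block 0.02760), and Cd68, a lysosomal protein of macrophages, from 0.868 to 1.72 CPM (log2 0.97, SE 0.25, edgeR adjusted p = 0.006982; without the block adjusted p = 0.1629). Dcn and Cd68 were 1 of 4 tested fibroblast markers and 1 of 3 tested myeloid markers. Dcn stood at 0.570 ± 0.310 CPM in control, under the filter of 1 CPM, and passed it through injured libraries. Its calls are therefore not independent of the filter. Among all tested genes 22.2% were called in this comparison and 10.7% were called higher. The summed fibroblast list was at 2.58 to 9.68 CPM in control and 4.53 to 14.7 CPM at 16 HPI, and the summed myeloid list at 4.57 to 7.37 and 6.32 to 7.39 CPM, with overlap in both. Mean CPM from control to 16 HPI went from 0.640 to 1.20 for Col1a1, 1.75 to 1.93 for Col1a2 and 1.96 to 3.39 for Col3a1. None of these 3 fibroblast markers was called, and the untested Lum and Pdgfra also had higher means at 16 HPI. Of the myeloid markers Aif1, C1qb and Cd68 passed the filter, with 32 to 102, 16 to 42 and 10 to 49 counts in a library. The untested C1qa had 1 to 28 counts, and Itgam had at most 1 count in a library. From control to 16 HPI Aif1 went from 2.72 to 3.31 CPM and C1qb from 1.28 to 1.10 CPM, and neither was called. C1qb was called lower at 16 than at 8 HPI (without the block edgeR adjusted p = 0.1204). Of the untested myeloid markers, Ptprc, Lyz2 and C1qa had lower means at 16 HPI than in control and Adgre1 and Tyrobp higher ones. The summed sensory neuron list was lower at 16 HPI, 7989 to 8841 CPM against 9222 to 9372 CPM in control, with no overlap. Of its 8 markers Tubb3, a neuronal tubulin, and Rbfox3, a neuronal nuclear protein, were called lower, where 22.2% of all tested genes were called. Their log2 changes were -0.40 and -0.29 (edgeR adjusted p = 1.087e-05 and 0.03829, without the block 0.09583 and 0.5092). Tubb3 made the largest fall in the sum, from a mean of 2955 to 2237 CPM. Prph went from 4017 to 3985 CPM and Pou4f1 from 281 to 279 CPM, and the markers other than Tubb3 and Rbfox3 were not called. At 24 HPI Dcn and Cd68 were at 2.79 and 1.67 CPM while Csf1 was within its control range. The part of these markers' cells in the Csf1 values was not tested.

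Il34, the other ligand of Csf1r, was at 2.14, 1.92 and 3.56 CPM in control and at 2.06, 1.64 and 1.94 CPM at 16 HPI. Its highest mean was at 3 HPI, with libraries at 3.67, 2.96 and 2.76 CPM. The groups overlapped at each of these times. The log2 difference from control was 0.28 at 3 HPI (95% interval -0.15 to 0.72) and -0.46 at 16 HPI (95% interval -0.95 to 0.02, edgeR adjusted p = 0.1728). Il34 was lower at 16 HPI in all 3 replicate numbers, with ratios of 0.965, 0.856 and 0.545, and its fall was not called. In the order of the 6 Il34 means no pair of neighbours passed the test, with adjusted p from 0.4857 to 0.9783 in edgeR's test. Il34 overlaps 2 antisense genes with at most 6 counts each, and whether counting used strand is not given in the sources used here.

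Among the chemokines Cx3cl1, the membrane-bound fractalkine that neurons present to microglia and macrophages, had enough counts to test. It had 10, 13 and 28 counts in control, 8, 19 and 10 at 3 HPI, 4, 14 and 13 at 8 HPI, and 13, 32 and 26 at 16 HPI. These were 0.508, 0.959 and 1.35 CPM in control and 0.924, 1.81 and 1.40 CPM at 16 HPI, and the groups overlapped. Its lowest mean was at 3 HPI, 0.60 ± 0.205 CPM, and its highest at 16 HPI, 1.38 ± 0.444 CPM.

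No Cx3cl1 difference was called in edgeR's test. Against control the log2 difference was -0.71 at 3 HPI (95% interval -1.41 to -0.01) and 0.48 at 16 HPI (95% interval -0.13 to 1.10, adjusted p = 0.2668). The widest step was from 8 to 16 HPI, where Cx3cl1 was higher in all 3 replicate numbers (log2 0.93, SE 0.33, adjusted p = 0.06162), with ratios of 3.82, 1.22 and 2.14. That step passed the threshold with upper-quartile scaling (adjusted p = 0.04996) and without replicate 2 at 8 HPI (log2 1.31, adjusted p = 0.02892). Replicate 1 had the lowest Cx3cl1 in 5 of the 6 groups.

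The other chemokines were at the limit of detection. Ccl2, which draws in monocytes, had 56 counts over the 18 libraries, with 3, 2 and 7 in control, 2, 1 and 1 at 3 HPI and 8, 4 and 2 at 8 HPI. Its highest library reached 0.484 CPM, and 12 of the 18 libraries had 3 counts or fewer. Cxcl12, which retains and attracts leukocytes and progenitors, had 0 counts in all 3 control libraries and 17 counts over the other 15 libraries, never more than 3 in 1 library. Cxcl10, an interferon-induced chemokine for T cells, had 1 count in each control library, none at 8 or 16 HPI, and 0, 0 and 3 at 24 HPI. A count of 0 allows up to 3 counts, which is 0.147 to 0.218 CPM in the control libraries. The highest libraries were at 0.186 CPM for Cxcl12 and 0.137 CPM for Cxcl10. Differences of this size were not detectable at this depth. The plot of raw counts for the untested genes shows every library.

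**Figure D3:**
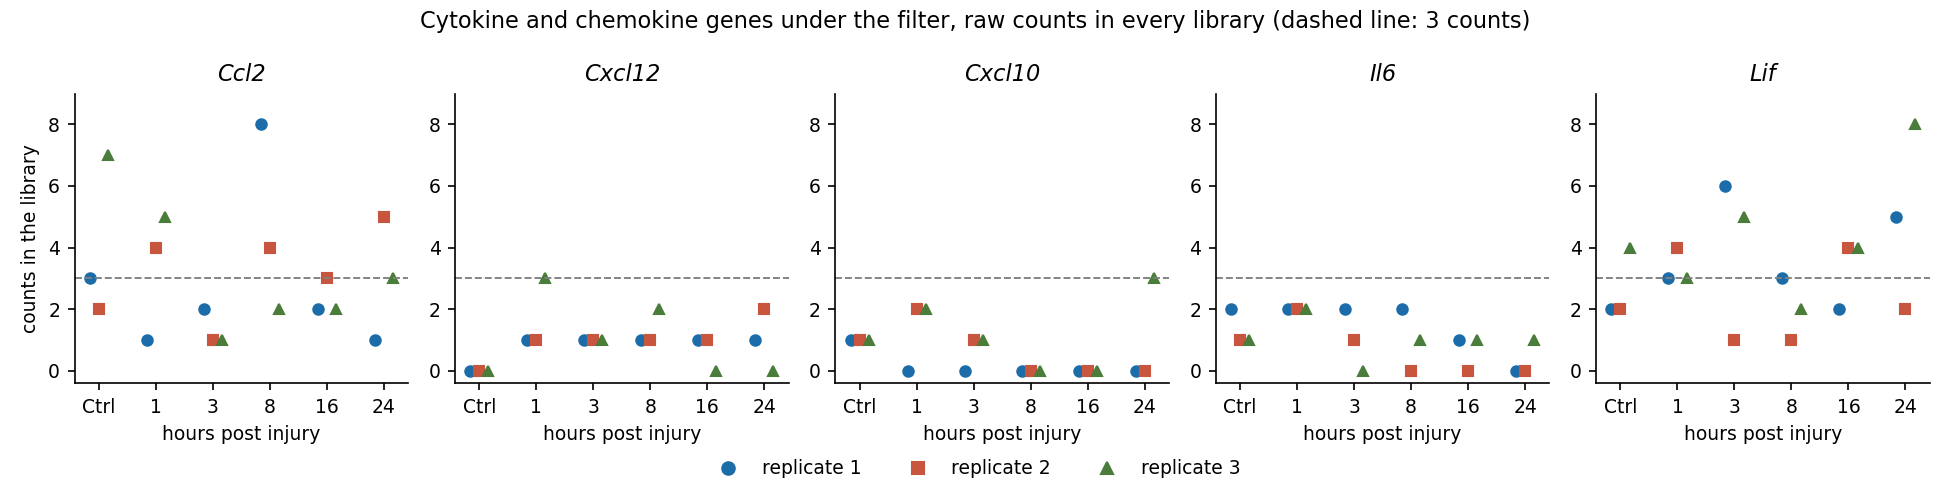
Raw counts (vertical axis) of the 5 genes under the filter in every library over time after injury, with symbols for the replicate number and a dashed line at 3 counts. Il6, Cxcl12 and Cxcl10 never pass the line, and Ccl2 and Lif reach at most 8 counts.

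Of the gp130 cytokines, Clcf1 was measurable while Il6 and Lif were not. Clcf1 is secreted together with a partner chain and is a ligand of the ciliary neurotrophic factor receptor. Its libraries stood at 2.39, 0.885 and 3.71 CPM in control (47, 12 and 77 counts), at 3.13, 1.76 and 3.94 CPM at 16 HPI and at 3.00, 2.29 and 3.93 CPM at 24 HPI (49, 49 and 86 counts). The groups overlapped, since replicate 2 was lowest and replicate 3 highest in most groups. Clcf1 was higher at 24 HPI than in control in all 3 replicate numbers, with ratios of 1.26, 2.59 and 1.06 (log2 0.40, SE 0.19, 95% interval 0.00 to 0.80), and the difference was not called (edgeR adjusted p = 0.1718). At 16 HPI the log2 difference was 0.32 (95% interval -0.10 to 0.73), and at 1, 3 and 8 HPI it lay between -0.11 and -0.02. Control replicate 2, with 12 counts, is the lowest Clcf1 library of the series.

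Il6, the cytokine that binds Il6ra before gp130, had 19 counts over the 18 libraries and at most 2 in any library. It had 2, 1 and 1 counts in control, 2, 2 and 2 at 1 HPI, 1, 0 and 1 at 16 HPI and 0, 0 and 1 at 24 HPI. Lif, which signals through Lifr and gp130, had 61 counts in all and at most 8 in a library. It had 2, 2 and 4 counts in control, 6, 1 and 5 at 3 HPI, 2, 4 and 4 at 16 HPI and 5, 2 and 8 at 24 HPI, and the groups overlapped. In a fit of the 23606 genes whose summed count reached 10, none of the 5 sparse genes was called by edgeR. The smallest unadjusted p was 0.01053, for Ccl2 at 8 HPI against 3 HPI, with an adjusted p of 0.2751.

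Mif was the most abundant of the 10 genes and stayed within a narrow range. It is a small protein with both cytokine and tautomerase activity that binds Cd74. Its libraries stood at 263, 267 and 258 CPM in control, at 228, 259 and 249 CPM at 3 HPI, at 202, 258 and 246 CPM at 8 HPI and at 267, 277 and 265 CPM at 16 HPI. The counts, 2433 to 5937 per library, are far above those of the other genes. Every 16 HPI library was above every 8 HPI library, as it was for 9.62% of all tested genes, and replicate 1 at 8 HPI was the lowest Mif library of the series.

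Of the 8 comparisons run, 5 with control and 3 between neighbouring times, edgeR called Mif in the step from 8 to 16 HPI alone, 1.15-fold (log2 0.20, SE 0.06, adjusted p = 0.02636), and together with Csf1 it made 2 of 5 tested genes called higher in a comparison where 15.2% of all genes were called and 7.3% were called higher. The ratios within replicate numbers were 1.32, 1.08 and 1.08. Without replicate 1 at 8 HPI the log2 step was 0.11 (adjusted p = 0.2118), and without the replicate block the adjusted p was 0.3123. Against control, Mif differed by no more than -0.16 in log2 (8 HPI, 95% interval -0.29 to -0.04, edgeR adjusted p = 0.1085), and at 16 HPI the interval was -0.09 to 0.16. A Mif pseudogene, Mif-ps3, took at most 3 counts in a library.

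Over the whole time course, 2 of the 5 tested genes differed among the 6 groups in edgeR's joint test, Csf1 (adjusted p = 0.0001759) and Mif (adjusted p = 0.04385), where 30% of all tested genes did. Cx3cl1 (adjusted p = 0.05603), Il34 (0.1457) and Clcf1 (0.1483) did not pass. Mif did not pass in 11 of 18 fits that each left out 1 library. Without the replicate block neither gene passed, with adjusted p of 0.1351 for Csf1 and 0.5611 for Mif. At 1, 3, 8 and 24 HPI against control 0 of the 5 genes were called by edgeR, where 0.276%, 0.189%, 7.68% and 15% of all tested genes were called, and 0, 1, 1 and 1 of the 5 had an unadjusted p under 0.05, as did 12.8%, 14.5%, 22% and 28.6% of all tested genes. From 3 to 8 HPI 0 of the 5 were called by edgeR, where 2.3% of all were and where 0 of the 5 had an unadjusted p under 0.05. DESeq2's Wald test called Csf1 alone at 16 HPI. The plot of fold changes with their intervals shows how narrow the Mif intervals are beside those of Cx3cl1.

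**Figure D4:**
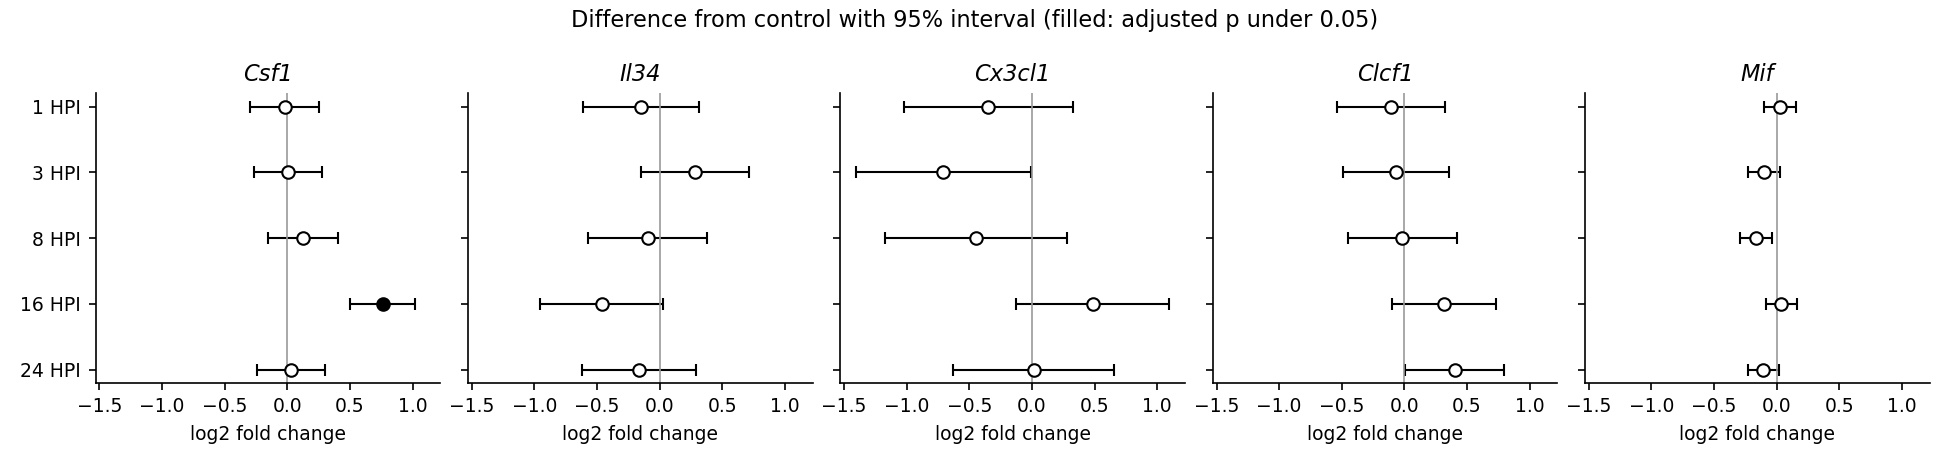
Log2 fold change against control (horizontal axis) with 95% intervals from edgeR at each time after injury (vertical axis) for the 5 tested genes, with filled points where the adjusted p was under 0.05. The only filled point is Csf1 at 16 HPI, 0.76 with an interval of 0.50 to 1.02.

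The genes whose log2 CPM followed Csf1 most closely over the 18 libraries, once replicate means were removed, were Zfp954, Tle3 and Fam214b, with Pearson r of 0.918, 0.912 and 0.911. These values describe likeness among 18 libraries, in groups of 6 that share a replicate number. Tle3, a transcriptional co-repressor, went from 17.0 ± 1.20 CPM in control to 36.6 ± 3.48 CPM at 16 HPI and 21.5 ± 1.72 CPM at 24 HPI. Fam214b went from 27.9 ± 1.498 to 41.9 ± 1.11 and 29.4 ± 1.703 CPM. For Mif the closest were Ndufs5, a subunit of respiratory complex I, Thyn1 and Rps15, a ribosomal protein, with r of 0.890, 0.886 and 0.845. Rps15 was lowest at 8 HPI, 151 ± 12.5 CPM, as Mif was.

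Transcripts of most receptors for the sparse ligands were themselves sparse, while Lifr, Il6st and Cntfr, 3 receptor chains for the gp130 cytokines, were abundant and Il6ra was low. Of 15 receptor genes 8 passed the filter, and 6 of these 8 were called at 1 or more times against control, where 30.5% of all tested genes were. Il6ra was 1 of these 6, and it passed the filter only through the group in which it was called. Its part in this count is therefore not independent of the filter. Csf1r had 81 counts in all and at most 15 in a library. Ccr2 had 7 counts, Cx3cr1 51, Cxcr4 72 and Ackr3 23 over the 18 libraries, Cxcr2 had 2 and Cxcr3 none. In control, Lifr stood at 112 ± 18.8 RPKM, Il6st at 56.6 ± 5.72 RPKM, Cntfr at 17.4 ± 0.260 RPKM and Cd44, the co-receptor of Mif, at 20.2 ± 6.76 RPKM, against 0.0597 ± 0.0217 RPKM for Il6ra.

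Il6ra, the ligand-binding receptor of Il6, was also highest at 16 HPI. It was at 0.305, 0.664 and 0.578 CPM in control (6, 9 and 12 counts), at 1.78, 1.47 and 2.16 CPM at 16 HPI (25, 26 and 40 counts) and at 0.551, 0.421 and 0.640 CPM at 24 HPI. The 16 HPI libraries did not overlap any other group, where the highest library was at 0.858 CPM. Il6ra was thus over 1 CPM at 16 HPI alone and passed the filter only through that group. Its lack of overlap and its calls that involve 16 HPI are therefore not independent of the filter. The change was 3.6-fold at 16 HPI (log2 1.85, SE 0.29, edgeR adjusted p = 9.569e-05), and it was called without the block as well (adjusted p = 0.01086). Il6ra then fell by 1.74 on the log2 scale from 16 to 24 HPI (adjusted p = 0.0003669 in edgeR's test).

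The shared subunits moved the other way at 16 HPI. Lifr went from 1423, 1159 and 1026 CPM in control to 971, 790 and 690 CPM at 16 HPI (log2 -0.56, SE 0.06, edgeR adjusted p = 2.435e-06), and Il6st from 619, 696 and 570 to 516, 568 and 443 CPM (log2 -0.31, SE 0.05, edgeR adjusted p = 0.0001417). Both were lower in all 3 replicate numbers. Without the block their adjusted p values at 16 HPI were 0.06379 and 0.1662. With the block Lifr was also called lower at 8 HPI, and both genes were called lower at 24 HPI. Of all tested genes 7.68% and 15% were called at those times. Without the block the edgeR adjusted p was 0.8274 for Lifr at 8 HPI. It was 0.2386 for Lifr and 0.1485 for Il6st at 24 HPI.

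**Figure D5:**
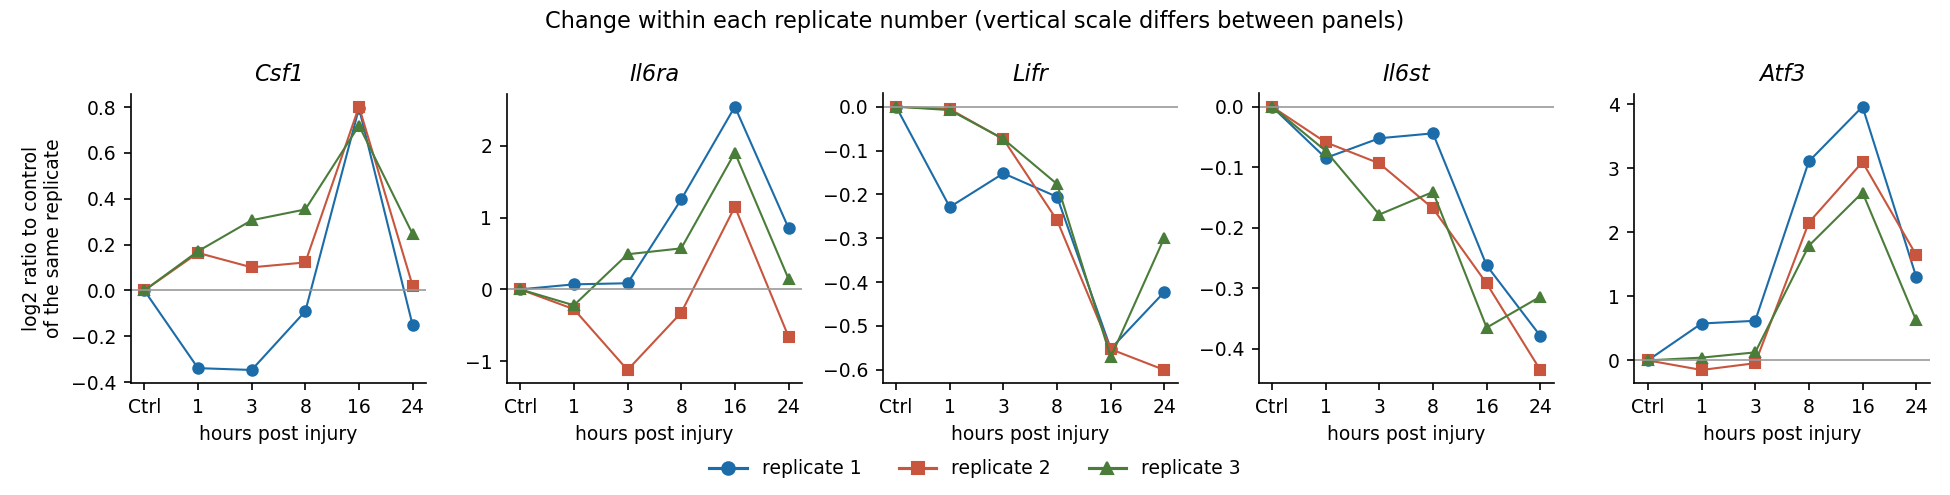
Log2 ratio of CPM to the control library of the same replicate number (vertical axis, a different scale in each panel) over time after injury for Csf1, the receptor genes Il6ra, Lifr and Il6st, and the injury gene Atf3, with 1 line for each replicate number. All 3 Csf1 lines meet at 16 HPI between 0.72 and 0.80 and come back towards 0, Il6ra and Atf3 have their highest points at the same time, and Lifr and Il6st lie below 0.

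Of the remaining receptors, Ptprz1, a phosphatase that also binds Il34, fell by 0.55 on the log2 scale at 16 HPI (SE 0.07, edgeR adjusted p = 1.087e-05), from 34.3 ± 5.18 to 23.5 ± 4.99 CPM. Sdc1, a syndecan that binds Il34, rose 2.2-fold at 24 HPI (log2 1.14, SE 0.16, edgeR adjusted p = 7.343e-05), with libraries at 7.83, 5.38 and 6.45 CPM in control and 18.01, 12.2 and 13.1 CPM at 24 HPI. Cd44 was 0.21 higher on the log2 scale at 16 HPI (edgeR adjusted p = 0.02400). Without the block the adjusted p values were 0.1718, 0.1485 and 0.8344. Cntfr and Cd74 were tested and not called at 16 HPI, with log2 differences of -0.13 (95% interval -0.29 to 0.02) and -0.75 (95% interval -1.83 to 0.33).

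Few other cytokine genes were read in these cultures. Of 50 further ligands listed, 49 were in the files and 11 passed the filter, and 2 of the 11 were called against control at 1 or more times, where 30.5% of all tested genes were. Tgfb3 rose at 24 HPI, from 3.05, 1.48 and 1.78 to 5.45, 3.27 and 3.11 CPM (log2 0.88, SE 0.19, edgeR adjusted p = 0.002923; without the block 0.2752). Ddt, the close relative of Mif, fell by 0.54 on the log2 scale at 8 HPI (SE 0.14, edgeR adjusted p = 0.01940; without the block 0.5641) and was at 5.71 ± 0.476 CPM in control. Tnf, Csf2, Osm and Ifng had no count in any library, and Il1b had 1 count in all. Kitl, the ligand of the Kit receptor, was the most abundant of the 11 at 549 ± 180 CPM in control and was not called.

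None of the 4 tested genes listed for shedding or trimming these ligands, Adam10, Adam17, Rhbdf1 and Rhbdf2, was called against control by edgeR. Of all tested genes 30.5% were called at 1 or more times. Rhbdf1, an inactive rhomboid that carries Adam17 to the cell surface, was higher at 16 than at 8 HPI (log2 0.63, SE 0.15, edgeR adjusted p = 0.006024; without the block 0.5520). In that step 15.2% of all tested genes were called and 7.3% were called higher. Of the NF-kB genes 3 of 9 tested were called at 1 or more times, a share near the 30.5% of all tested genes, and all 3 were higher: Rela at 16 HPI (log2 0.29), Relb at 16 and 24 HPI (log2 0.52 and 0.55) and the inhibitor Nfkbie at 24 HPI (log2 1.08, SE 0.18, edgeR adjusted p = 0.0004690), and Nfkbie alone was called without the block (adjusted p = 0.01217). Of the interferon response genes 4 of 9 tested were called at 1 or more times, where 30.5% of all tested genes were, with Ifit3, Stat2 and Ifit2 lower at 16 HPI (log2 -1.09, -0.52 and -0.44) and Ddx58 higher (log2 0.43). Stat2 was called without the block too (adjusted p = 0.004939). Ifit3 was far higher in control replicate 1, 61.9 CPM, than in replicates 2 and 3, 15.9 and 8.57 CPM.

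Neuronal injury genes give a time scale for these values. Of 8 tested genes 5 were called higher at 8 HPI and at 16 HPI, when 7.68% and 22.2% of all tested genes were called. Atf3, a stress-induced transcription factor, went from 7.63, 14.2 and 18.6 CPM in control to 65.8, 63.0 and 64.3 CPM at 8 HPI and 119, 121 and 114 CPM at 16 HPI (log2 3.16, SE 0.21, edgeR adjusted p = 4.108e-09). Ddit3, Jun and Gadd45a were higher by 1.06, 1.03 and 0.99 on the log2 scale at 8 HPI. Without the block 2 of the 5 calls stood at 8 HPI (Atf3 and Sox11; adjusted p = 0.1375, 0.1197 and 0.3735 for Ddit3, Jun and Gadd45a) and 3 at 16 HPI (Atf3, Sox11 and Ddit3; 0.09583 and 0.2461 for Jun and Gadd45a), by edgeR. Csf1 differed from control by 0.13 on the log2 scale at 8 HPI (95% interval -0.15 to 0.41), and its own highest level came at 16 HPI.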

How the data were processed

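RNA sequencing was done on 18 culture samples. The deposited files hold raw counts per Ensembl gene, whole numbers that the authors made after alignment with STAR to mm10. The paper names featureCounts as the counter, while the labels name HTSeq and the files carry htseq-count entries for reads on no gene, which were left out. Symbols, exon lengths and coordinates came from GENCODE vM21 (47224 of 47643 genes matched). Strand use in counting is not given in the sources used here.

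Counts were fitted with edgeR 4.0.16 (R 4.3.3) on all 18 libraries, with TMM factors, genes over 1 CPM in at least 3 libraries, quasi-likelihood tests, and Benjamini-Hochberg adjustment over 13771 genes at 0.05. The replicate number was a block, since the study corrected for batch and same-numbered libraries deviated together (45 pairs, r 0.48 to 0.76, mean 0.62). Pairs of different number (90 pairs, mean -0.31) are pushed below 0 by taking deviations from each group's mean over 3 libraries. The labels do not say whether replicates are separate cultures or litters, so p-values measure the spread between these libraries. RPKM used total exon length. Alternatives were other scalings, filters and tests (DESeq2 1.42.0), no block, and each library left out in turn. All 10 genes are named. From each gene list at most 4 called genes are named, those of largest change, and from the receptors every tested gene. For genes called over the time course, the 3 genes of highest correlation are named. Other genes were named after their values were seen, among them the untested receptors and ligands, the cell type markers, Kitl and Rhbdf1. The genes and lists were chosen with earlier results of these data known. The fit was tested on simulated counts.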

Additional observations from a re-analysis of the deposited data

How the results depend on the processing

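Without the replicate block 0 of the 5 tested genes were called at 16 HPI against control, from 8 to 16 HPI, from 16 to 24 HPI and over the whole time course, where the block gave 1, 2, 1 and 2. At 16 HPI the number of all genes called went from 3055 to 706. Csf1 at 16 HPI kept its call in 13 of 14 alternatives, with log2 values of 0.63 to 0.90 over all of them. With 1 library left out, 1 to 3 genes were called from 8 to 16 HPI and 1 to 3 over the whole time course. Mif lost its call from 8 to 16 HPI without replicate 1 at 8 HPI, replicate 1 at 16 HPI (log2 0.18, adjusted p = 0.1158) or replicate 3 at 16 HPI (0.20, adjusted p = 0.06395), and its time course call in 11 of the 18 such fits (adjusted p by edgeR up to 0.1039), those without Control replicates 1 or 3, replicates 1 or 2 at 1 or 3 HPI, replicate 1 at 8 HPI, or replicates 1 or 3 at 16 or 24 HPI. Cx3cl1 gained a time course call with upper-quartile scaling (adjusted p = 0.04732) and without Control replicates 2 or 3, replicate 2 at 8 HPI or replicate 3 at 24 HPI.

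Differences that were not called changed sign in places. Without the block Csf1 at 3 HPI was -0.0095 and Clcf1 at 8 HPI 0.0020 in log2. Over all the alternatives, the log2 ranges that crossed 0 were, at 1 HPI against control, Csf1 -0.11 to 0.11, Il34 -0.27 to 0.15, Cx3cl1 -0.65 to 0.10, Clcf1 -0.25 to 0.12 and Mif -0.026 to 0.073. At 3 HPI they were Csf1 -0.090 to 0.14 and Clcf1 -0.21 to 0.16. At 8 HPI they were Il34 -0.32 to 0.22, Cx3cl1 -0.82 to 0.028 and Clcf1 -0.27 to 0.22. At 24 HPI they were Csf1 -0.067 to 0.16, Il34 -0.29 to 0.15 and Cx3cl1 -0.28 to 0.47. From 3 to 8 HPI they were Csf1 -0.0039 to 0.22, Cx3cl1 -0.13 to 0.47, Clcf1 -0.20 to 0.18 and Mif -0.12 to 0.026, and from 16 to 24 HPI Clcf1 -0.038 to 0.20. With the longest transcript as length, control RPKM was 1.58 for Csf1 and 438 for Mif. A filter over 1 CPM in all 18 libraries removed Cx3cl1 and Clcf1. The causes of these changes were not tested, and at 3 counts or fewer Il6, Cxcl12 and Cxcl10 are limited by depth.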
